A study of Mus musculus with 2 samples.

Results

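Fine cluster 11 was the smallest of the 12 clusters that the authors' annotation gave at resolution 0.9, with 73 of 8562 CD8 T cells. Its members were the cells with that cluster number in the annotation, and it was described against the other 8489 cells and against the 112 cells of fine cluster 10. The cells were taken from colon lamina propria; the hosts were Rag1 knockout mice, which make no T or B cells of their own, and cells were isolated 6 to 10 weeks after transfer. The mice were 8 to 12 weeks old at transfer, per the labels. Hosts received naive wildtype CD4 T cells, which cause colitis, and splenic CD8 T cells from donors of either genotype. The group that the annotation calls Crep was read as Bcl6fl/fl Cd8aCre, with Cre made under Cd8a control, and the group called Cren as Bcl6fl/fl, with the floxed gene and no Cre; no source spells this reading out. Each group had 4 hashtag antibodies, and all cells were captured in 1 pooled gene expression library.

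Xcl1 and Tnfrsf9 were given as marks of the cluster. Xcl1 encodes the chemokine lymphotactin, which activated CD8 T cells and NK cells release and which attracts the dendritic cells that carry its receptor. Tnfrsf9 encodes 4-1BB (CD137), a costimulatory receptor of the TNF receptor family that appears on CD8 T cells after their antigen receptor is engaged and signals through TRAF proteins to NF-kappaB. In a T cell, receptor engagement also turns on the NR4A and EGR factors within hours and, through MYC, the machinery of ribosome production. The cluster was made by grouping cells on their gene levels, so every difference between it and other cells is a description with no test.

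The RefSeq promoters of the 2 mark genes (GRCm38.p6, 250 bases before to 50 after the annotated start, printed 5′ to 3′ on the gene's strand) are shown because these genes had the highest ratios to other cells among genes with a UMI in at least 20% of the cluster's cells. Capitals mark 2 patterns searched on both strands, the NFAT core GGAAA (shown as its complement where it lies on the other strand) and the AP-1 pattern TGANTCA. They stand for families of factors that act after receptor engagement. The Xcl1 window lies at chr1:164935473-164935772 on the minus strand, and the Tnfrsf9 windows, for a pair of annotated starts, at chr4:150919905-150920204 and chr4:150927749-150928048 on the plus strand.
Xcl1: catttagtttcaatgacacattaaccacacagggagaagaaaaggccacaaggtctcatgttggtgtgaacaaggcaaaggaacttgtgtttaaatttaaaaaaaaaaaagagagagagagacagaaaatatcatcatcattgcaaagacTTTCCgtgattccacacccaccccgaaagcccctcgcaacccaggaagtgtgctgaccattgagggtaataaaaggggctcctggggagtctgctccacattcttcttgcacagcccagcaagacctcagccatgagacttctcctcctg
Tnfrsf9, upstream start: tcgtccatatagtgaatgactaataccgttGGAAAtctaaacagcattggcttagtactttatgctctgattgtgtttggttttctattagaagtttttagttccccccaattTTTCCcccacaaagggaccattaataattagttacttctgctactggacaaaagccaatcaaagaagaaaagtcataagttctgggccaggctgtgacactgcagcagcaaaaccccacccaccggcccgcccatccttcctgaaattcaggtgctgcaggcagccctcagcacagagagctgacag
Tnfrsf9, downstream start: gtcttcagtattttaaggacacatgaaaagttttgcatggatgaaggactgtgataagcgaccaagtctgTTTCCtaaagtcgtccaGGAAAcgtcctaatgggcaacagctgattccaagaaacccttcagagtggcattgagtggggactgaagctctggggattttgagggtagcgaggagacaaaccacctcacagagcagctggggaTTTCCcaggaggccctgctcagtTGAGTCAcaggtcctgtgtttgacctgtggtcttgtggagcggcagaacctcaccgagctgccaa
The NFAT core stood 1 time in the Xcl1 window and 2 and 3 times in the Tnfrsf9 windows, and TGANTCA stood 1 time, in the downstream Tnfrsf9 window. The core is short: 61.3% of the 32851 promoters in the table held it, against 66.7% of the 21 promoters of the 20 leading genes named below (17 genes had an entry). TGANTCA was in 7.81% of all promoters and 4.76% of those 21. The E-box CACGTG is the pattern that MYC binds. It was in 30% of the 20 promoters of the list of MYC targets and ribosome biogenesis, and in 7.15% of all promoters. The matches came from 4 of the 14 genes with an entry, Hspd1, Ran, Eif4a1 and Eif5a. MYC targets were put on that list (described below) by choice, so its share is no test of MYC. Entries for several starts of 1 gene share sequence, and a match is not evidence of binding.

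Cells of cluster 11 were found in all 8 hashtags. The Crep hashtags held 5, 9, 2 and 3 of them, and the Cren hashtags 28, 12, 6 and 8. Cren 1 alone held 38.4% of the cluster. As shares of each hashtag's cells these were 0.491%, 0.825%, 0.200% and 0.287% in Crep and 2.15%, 1.09%, 0.548% and 0.889% in Cren. The ranges overlapped, since Crep 2 lay above Cren 3. The mean share was 0.451% ± 0.278 in Crep and 1.17% ± 0.689 in Cren (SD, n = 4 hashtags each), a difference of -0.717 percentage points that missed the threshold in an exact two-sided permutation test over hashtags (p = 0.0571, where the smallest p that 4 against 4 allows is 0.0286). Without Cren 1 the difference was -0.390 points (exact p = 0.114), and without Cren 3, which held the 109 cells of cluster 10, it was -0.923 points (exact p = 0.0286). None of the 10 leading genes of the cluster passed between Crep and Cren over all cells in edgeR's quasi-likelihood test, in which 59 of 9653 genes (0.611%) passed, nor over the cells outside the cluster, where 54 of 9637 (0.56%) passed. Crtam, at rank 13, passed over all cells (log2 fold change -0.47, edgeR adjusted p = 0.0472) and not over the cells outside the cluster (adjusted p = 0.169).

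**Figure D1:**
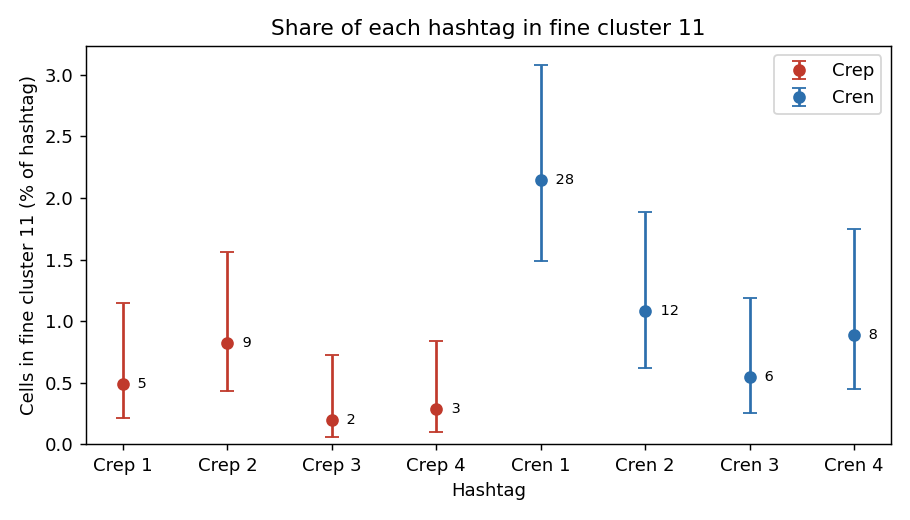
Share of each hashtag's cells that fell in fine cluster 11, in percent, with 95% Wilson intervals (counting error only); the number beside each point is the count of cells. Cren 1 had the highest share (2.15%, 28 cells) and Crep 3 the lowest (0.200%, 2 cells), and Crep 2 lay above Cren 3.

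The cells were deep. Their median was 4081 UMIs (875 to 7790), against 2756 in other cells, and 1603 against 1259 genes. The median mitochondrial share was 0.74% against 0.69%, the ribosomal share 20.33% against 19.2% and the heat shock share 0.58% against 0.38%. Shares of cells with a UMI are therefore also given after thinning each cell to 2000 UMIs, which kept 68 cluster 11 cells and 6571 other cells and left out 5 and 1918. No doublet caller was run here, and all 73 cells had been given their hashtag by both hashtag classifiers of the annotation. At the coarser resolution of 0.6, 69 of the 73 cells shared a cluster with all 112 cells of cluster 10, and at 0.8 they stood apart, 68 of them in a cluster of 70 cells.

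Most cells of the cluster held both marks. Xcl1 (chromosome 1, 164931644 to 164935527, GRCm38) had 3339 CPM over the summed cells of cluster 11 and 45.4 CPM over other cells, a ratio of 73.5, and 84.9% of cluster 11 cells and 6.41% of other cells had a UMI. After thinning these shares were 73.5% and 4.92%. Per hashtag, Xcl1 in cluster 11 was 2536, 3101, 518 and 87.9 CPM in Crep and 3338, 4968, 4601 and 2797 CPM in Cren. In other cells of the same hashtags it was 35.98, 61.4, 20.1 and 8.77 CPM in Crep and 26.5, 111, 41.2 and 58.98 CPM in Cren. The level in cluster 11 was above that of the other cells in 8 of 8 hashtags, and was lowest in Crep 3 and Crep 4, which rest on 2 and 3 cells with 6 and 1 Xcl1 UMIs. Tnfrsf9 (chromosome 4, 150914562 to 150946102) had 969 CPM in cluster 11 and 33.6 CPM in other cells, a ratio of 28.8, with a UMI in 83.6% of cluster 11 cells and 7.46% of other cells, and in 77.9% and 5.19% after thinning. Per hashtag it was 934, 1042, 864 and 1318 CPM in Crep and 948, 1127, 683 and 910.0 CPM in Cren, a narrower spread than that of Xcl1, while other cells had 22.1 to 49.2 CPM.

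**Figure D2:**
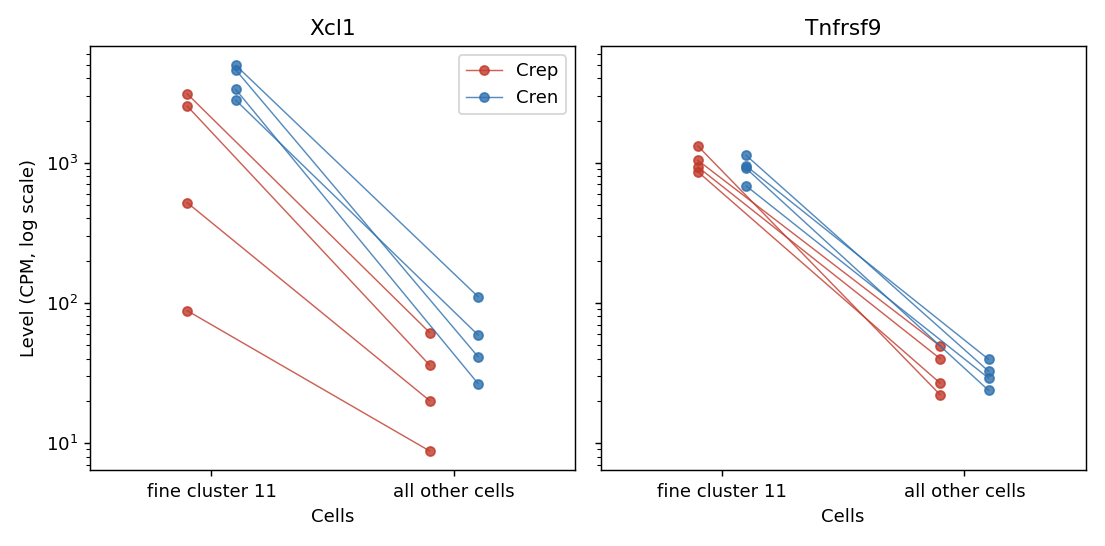
Xcl1 and Tnfrsf9 levels in CPM (log scale) in fine cluster 11 and in all other cells; each line joins the values of 1 hashtag, coloured by group. In 8 of 8 hashtags both genes were higher in cluster 11, and Xcl1 of Crep 4 (87.9 CPM, 3 cells) lay lowest.

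Of the 73 cells, 52 had UMIs of both marks, 10 of Xcl1 only, 9 of Tnfrsf9 only and 2 of neither. Among other cells 71 had both (0.836%), of which 26 were in fine cluster 2 and 17 in fine cluster 0. At equal depth both were seen in 58.8% of cluster 11 cells and 0.441% of other cells. The cell with the most Xcl1 held 115 UMIs and the median cluster 11 cell 9; 42 other cells had 5 or more, up to 86. Between the groups, Xcl1 in the cluster averaged 1561 ± 1481 CPM over the Crep hashtags and 3926 ± 1026 CPM over the Cren hashtags (SD, n = 4; exact two-sided permutation p = 0.0571). Over the hashtags with at least 5 cells, 2 in Crep and 4 in Cren, the difference was -1107 CPM (exact p = 0.2). With 2 against 4 this test cannot fall under 0.05, so it decides nothing. Without Crep 2 it was -2878 CPM (exact p = 0.0286). Tnfrsf9 averaged 1039.7 ± 199.6 CPM over the Crep hashtags and 917 ± 183 CPM over the Cren hashtags (SD, n = 4, exact p = 0.457).

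Against all other cells, 4896 genes had a UMI in at least 10% of the cells of either set. Of these, 611 (12.5%) were at least 2-fold higher in cluster 11 and 480 (9.8%) at least 2-fold lower, with a median log2 ratio over all counted genes of 0.09. A gene scarce in other cells is counted only if enough cluster 11 cells hold it, so counts of list members lean towards higher genes. Genes are ranked here among those with a UMI in at least 20% of the cells of the higher set. After the 2 marks, the highest ratios belonged to Rgs16, a regulator that shortens G protein signalling, at 372 CPM and a ratio of 21.9 (higher in 6 of 8 hashtags); Smyd5, a SET-domain methyltransferase gene, at 75.03 against 3.95 CPM; and Marcksl1 at 153 against 10.04 CPM. Here and below the first value is cluster 11 and the second all other cells. Irf8, an interferon regulatory factor that CD8 T cells turn on after receptor engagement, was at 166 against 10.95 CPM and higher in 7 of 8 hashtags. Crtam, an adhesion receptor of activated CD8 T cells, was at 481 against 45.6 CPM (ratio 10.6) and higher in 8 of 8 hashtags, with a UMI in 56.2% of cluster 11 cells and 12.1% of other cells. Per hashtag, Crtam in the cluster was 667, 483, 432 and 87.9 CPM in Crep and 424, 626, 503 and 506 CPM in Cren. Nr4a3, an orphan nuclear receptor of the early response, was at 309 against 33.1 CPM and higher in 7 of 8 hashtags.

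Ligands and receptors of the TNF family stood among the 20. Tnfrsf4, the costimulatory receptor OX40, was at 128 against 8.42 CPM, but higher in only 3 of 8 hashtags, and its ratio of 15.2 was 5.66 without Cren 1. Lta, lymphotoxin alpha, was at 147 against 10.5 CPM, and Tnfsf11, the ligand RANKL, at 90.7 against 7.39 CPM. The Lta ratio of 13.97 was 8.19 without Cren 2, and the Tnfsf11 ratio of 12.3 was 6.61 without Cren 1. Ccr8, a chemokine receptor, was at 90.7 against 6.48 CPM, higher in 3 of 8 hashtags, with a ratio of 13.98 that was 3.95 without Cren 1. The chemokine gene Ccl3 was at 997 against 76.4 CPM (ratio 13.1, and 8.68 without Cren 1), and the potassium channel gene Kcnq5 at 78.2 against 5.61 CPM. The rest of the 20 were the spermidine synthase gene Srm at 241 against 23.6 CPM, Gm45716 at 213 against 21.6 CPM, the pyrophosphatase gene Ppa1 at 200.1 against 21.5 CPM, the tRNA methyltransferase gene Mettl1 at 96.9 against 10.6 CPM, the ribosome biogenesis gene Nop16 at 144 against 16.4 CPM and the transferrin receptor gene Tfrc at 71.9 against 9.37 CPM. Srm, Gm45716 and Ppa1 were higher in 8 of 8 hashtags.

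The 10 lowest genes among those with a UMI in at least 20% of other cells were lower in 8 of 8 hashtags, with the exception of Pik3r5 (7 of 8). They included genes of recirculation and survival. Klf2, the factor that keeps T cells in circulation through S1pr1, was at 156 against 1025 CPM (6.56-fold lower). Per hashtag Klf2 in the cluster was 44.5, 0, 0 and 615 CPM in Crep and 162, 20.9, 647 and 67.4 CPM in Cren. Il7r, the receptor chain for the survival cytokine IL-7, was at 147 against 793 CPM (5.40-fold lower), with a UMI in 38.4% of cluster 11 cells and 72.5% of other cells. Gzmk, a granzyme of memory-like CD8 cells, was at 100.04 against 699.5 CPM, Cxcr3, a chemokine receptor of type 1 responses, at 28.1 against 177 CPM, and Itga1, the integrin CD49a of tissue-resident cells, at 18.8 against 98.5 CPM. Ifitm10, with 2 UMIs in the cluster, was at 6.25 against 88.00 CPM, Klhl6 at 12.5 against 111 CPM, Scml4 at 15.6 against 95.2 CPM, Thap3 at 21.9 against 123 CPM and Pik3r5, a regulatory subunit of PI3-kinase gamma, at 18.8 against 102 CPM. These low levels rest on few UMIs: 14.1-fold lower for Ifitm10 became 25.9-fold without Crep 1, 8.85-fold for Klhl6 became 19.1-fold without Cren 1, and 5.62-fold for Thap3 became 8.74-fold without Cren 4. Pik3r5 also passed between the groups over all cells (log2 fold change 0.56 in Crep, edgeR adjusted p = 0.0369) and over the cells outside the cluster (0.54, adjusted p = 0.0424).

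**Figure D3:**
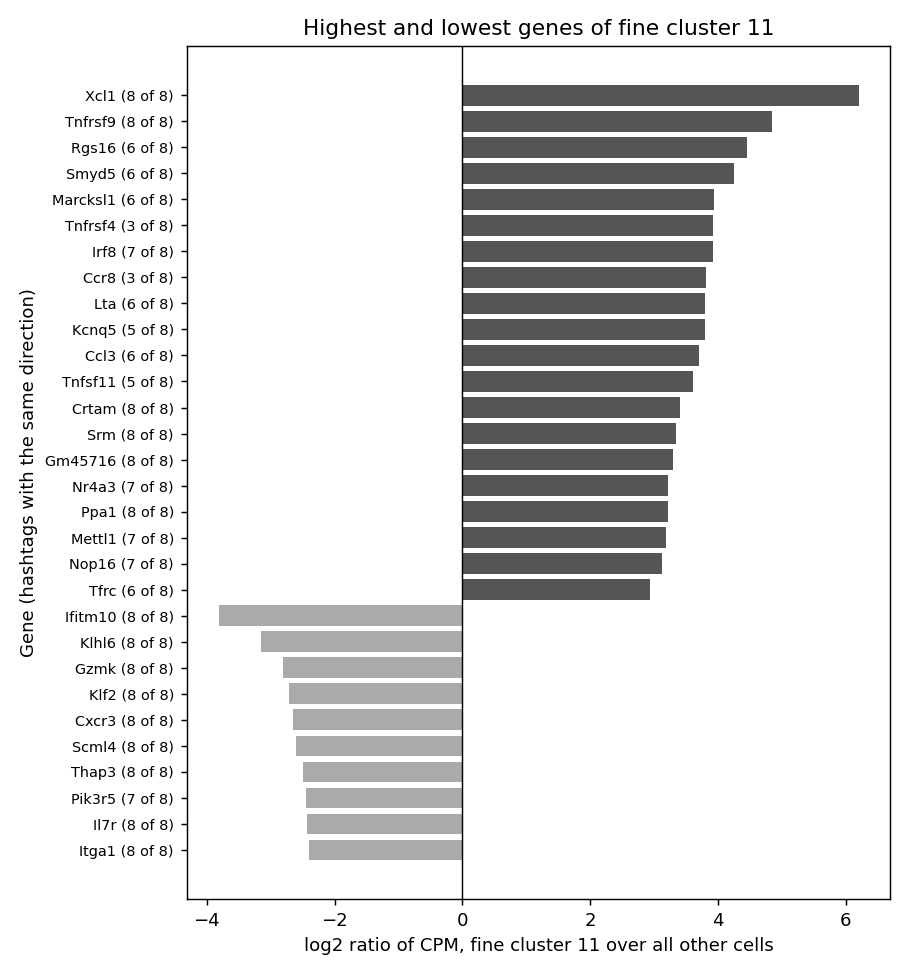
log2 ratio of CPM in fine cluster 11 over all other cells for the 20 highest and 10 lowest genes, with the number of 8 hashtags that had the same direction beside each name. Xcl1 and Tnfrsf9 lead in 8 of 8 hashtags, while Tnfrsf4 and Ccr8 were higher in 3.

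Of 22 genes of recent antigen receptor engagement 18 were counted, of which 14 were at least 2-fold higher and 0 at least 2-fold lower. The median log2 ratio was 2.01. Over all counted genes 12.5% were higher and 9.8% lower by this measure. Some members were counted only through cluster 11, such as Nr4a3, with a UMI in 45.2% of its cells and 7.10% of other cells. The count also includes both marks given for the cluster, so it is no separate support for them. Beside them, Nr4a1, the early receptor-response factor Nur77, was at 1304 against 305 CPM and higher in 7 of 8 hashtags, and Nr4a2 at 453 against 165 CPM. Il2ra, the alpha chain of the IL-2 receptor, was at 103 against 32.1 CPM, and Myc at 209 against 55.3 CPM, a ratio of 3.79 that was 1.90 without Cren 1. The lowest ratios of the list were Batf at 103 against 102 CPM and Cd69 at 222 against 197 CPM, both below 1 without the 2 cells highest for each (0.727 and 0.954). Of the NF-kappaB list, 8 of 15 counted members were at least 2-fold higher and 0 at least 2-fold lower. Its highest were the survival genes Bcl2a1d at 1000.4 against 148 CPM and Bcl2a1b at 1294 against 301 CPM, and the subunit gene Rel was at 353 against 95.9 CPM. The lowest were the inhibitor gene Tnfaip3 (A20) at 935 against 787 CPM and Traf1 at 319 against 268 CPM. The AP-1 and immediate early genes were mixed: 1 of 13 counted members were at least 2-fold higher and 0 at least 2-fold lower, with a median log2 ratio of 0.18. The AP-1 subunit gene Fosl2 was the higher one, at 122 against 55.1 CPM, in 8 of 8 hashtags, and Junb was at 5074 against 2638 CPM, while Fos was at 172 against 299.7 CPM and Jun at 453 against 791 CPM.

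The list of MYC targets and ribosome biogenesis was high throughout. Of its 17 genes 16 were counted, and all 16 were at least 2-fold higher, with a median log2 ratio of 1.74. Over all counted genes 12.5% were at least 2-fold higher. The list also holds Srm, Odc1, Ran, Hspd1, Eif4a1 and Eif5a beside its nucleolar genes. The largest ratios were those of Srm and of Nhp2, a protein of the snoRNA complexes that modify ribosomal RNA, at 331 against 78.1 CPM. The smallest were Ddx21 at 128 against 58.98 CPM and Npm1, the nucleolar chaperone nucleophosmin, at 2567 against 1019.7 CPM. Nucleolin (Ncl) was at 859.7 against 276 CPM. Per hashtag, Npm1 in the cluster was 1646, 1881, 3716 and 1406 CPM in Crep and 2752, 3590.0, 2336 and 1921 CPM in Cren. In 5 of 15 counted genes of nutrient transport and glycolysis the level was at least 2-fold higher and in none lower, among them the triose phosphate isomerase gene Tpi1 at 216 against 58.2 CPM, the mutase gene Pgam1 at 338 against 124 CPM and the lactate dehydrogenase gene Ldha at 1601 against 638 CPM. The lowest of that list were the glucose transporter gene Slc2a3 at 40.6 against 59.6 CPM and the hexokinase gene Hk1 at 31.3 against 39.8 CPM. Of the 19 genes of the cell cycle list, 9 were counted. Of these, 4 were at least 2-fold higher and 0 at least 2-fold lower, a count that cannot show a fall of scarce members. The members that were higher were of DNA replication licensing, Mcm5 at 43.8 against 12.7 CPM, Mcm3 at 81.3 against 23.6 CPM, Mcm6 at 156 against 59.2 CPM and Mcm2 at 37.5 against 16.6 CPM. Members not counted went both ways. Mki67, the usual mark of dividing cells, had 1 UMI in the cluster (3.13 against 15.3 CPM). Stmn1 was at 37.5 against 14.7 CPM and Top2a at 21.9 against 16.3 CPM. Their ratios of 2.55 and 1.34 were 1.43 and 0.842 without Cren 3. Birc5 and Rrm2 had 0 UMIs, but at 3.64 and 3.99 CPM in other cells they were too scarce to show a fall.

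**Figure D4:**
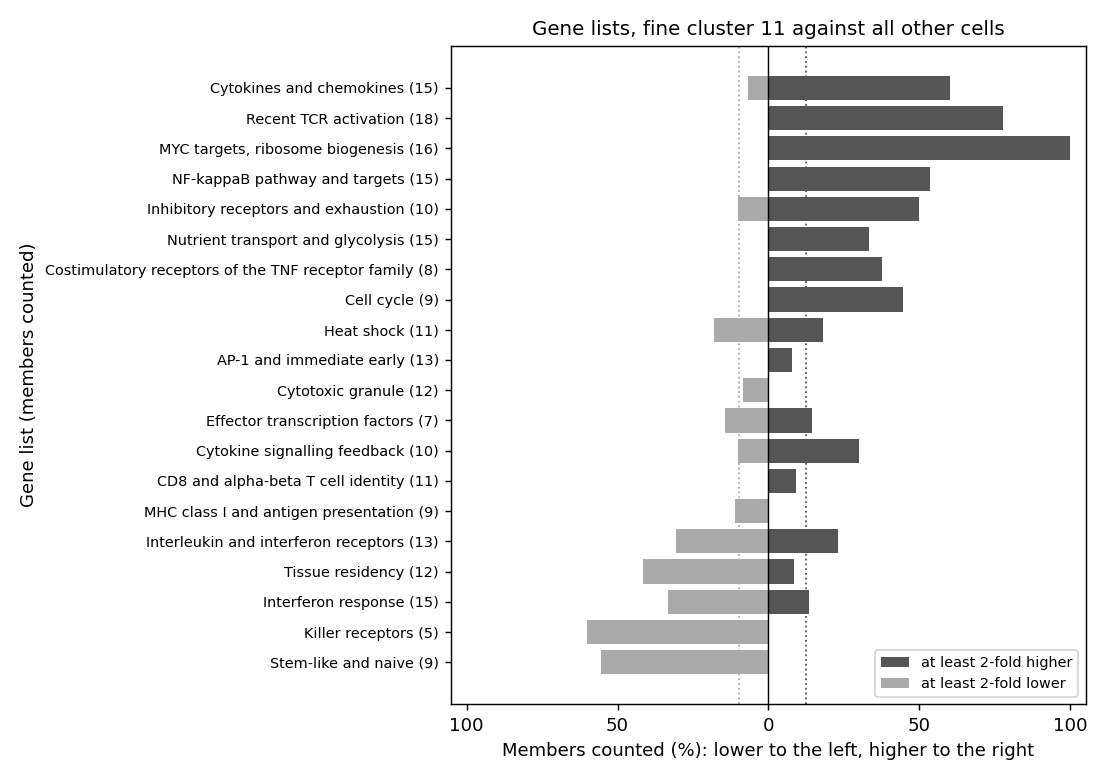
Share of the counted members of each gene list that were at least 2-fold higher (right, dark) or lower (left, light) in fine cluster 11 than in all other cells; dotted lines give the shares over all 4896 counted genes (12.5% higher and 9.8% lower). The list of MYC targets and ribosome biogenesis reached 16 of 16 and the stem-like list had 5 of 9 lower.

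Secreted products split. Of the cytokine and chemokine list, 9 of 15 counted members were at least 2-fold higher and 1 at least 2-fold lower, against 12.5% and 9.8% of all counted genes. The higher ones include Xcl1, a mark given for the cluster, so the count is no separate support for it. Some members, such as Ccl1, were counted only through cluster 11. Ccl1, a ligand of CCR8, was at 172 against 0.949 CPM, a ratio of 181 and the highest of the list. It came from 13 cells, with 41.8% of its UMIs in 2 of them and 36 of 55 in Crep 2, and was higher in 4 of 8 hashtags. Without Crep 2 it was at 67.7 CPM with a ratio of 82.2. Tnfsf14, the ligand LIGHT, was at 96.9 against 13.7 CPM. Ccl4 was at 7484 against 1609 CPM and higher in 7 of 8 hashtags. Ccl5, the most abundant chemokine of the other cells, was 2.93-fold lower at 8938 against 26147 CPM, lower in 8 of 8 hashtags. Per hashtag Ccl5 in the cluster was 20779, 7599.8, 10716 and 14677 CPM in Crep and 6669, 8620.1, 15059.5 and 3539 CPM in Cren, and in other cells it was 15637 to 35259 CPM. Only Crep 1 reached into the range of the other cells. Ifng, which encodes interferon gamma, was at 1882 against 285 CPM, but 270 of its 602 UMIs came from 1 cell and 65.6% from 2. Without those 2 cells its ratio was 2.36 in place of 6.60, and without Cren 1 it was 1.88. Ccl3 likewise had 50.2% of its UMIs in 2 cells, and its ratio was 6.64 without them.

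Cytotoxic genes did not set the cluster apart: 0 of 12 counted members were at least 2-fold higher and 1 at least 2-fold lower. Over all counted genes these shares were 12.5% and 9.8%. Gzmb, the granzyme B gene, was at 2885 against 2058 CPM, yet 449 of its 923 UMIs came from 1 cell, in Crep 4, and without its 2 highest cells the ratio was 0.651. Gzma was at 2898 against 3171 CPM with a ratio of 0.564 without its 2 highest cells. Srgn, the granule proteoglycan serglycin, was at 2976 against 1499.8 CPM and Gzmk was the member that was lower. Of the killer receptors, 0 of 5 counted members were at least 2-fold higher and 3 at least 2-fold lower; the lower ones were Klrg1, a receptor of terminal effector cells, at 68.8 against 198 CPM, Klrk1 (NKG2D) at 96.9 against 243 CPM and Klrd1 (CD94) at 225 against 482 CPM.

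**Figure D5:**
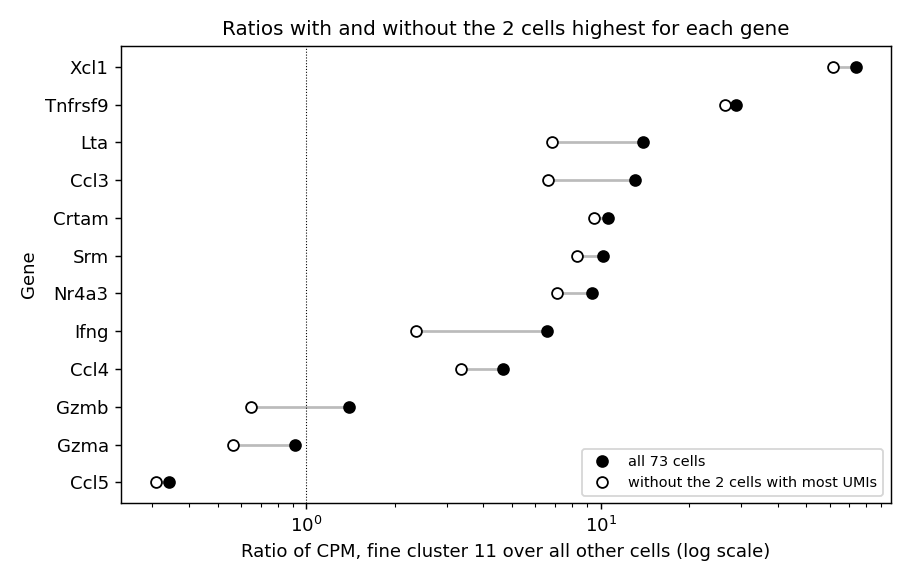
Ratio of CPM in fine cluster 11 over all other cells (log scale) with all 73 cells (filled) and without the 2 cluster cells with the most UMIs of each gene (open). The Ifng ratio was 6.60 with them and 2.36 without, and Gzmb crossed 1, while Xcl1 (73.5 and 61.6) and Crtam (10.6 and 9.50) stayed close.

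Of the stem-like genes, 0 of 9 counted members were at least 2-fold higher and 5 at least 2-fold lower, against 12.5% and 9.8% of all counted genes. Tcf7, the TCF-1 factor of stem-like CD8 cells, was at 25.01 against 113 CPM, lower in 8 of 8 hashtags, and S1pr1, the egress receptor, at 9.38 against 84.2 CPM (8.97-fold lower, and 14.4-fold without Cren 1). Lef1 was at 43.8 against 94.1 CPM. Bcl6 was at 31.3 against 23.05 CPM. Cxcr5 had 0 UMIs, but at 0.751 CPM in other cells it was too scarce to show a fall. Among members with a UMI in the cluster, the highest ratios were those of Ccr7 and Id3. Ccr7, which was not counted, was at 37.5 against 5.93 CPM on 12 UMIs, a ratio of 6.33 that was 2.79 without Cren 2. Id3 was at 34.4 against 19.5 CPM on 11 UMIs. Satb1 was at 172 against 123 CPM. Of the list of inhibitory receptors and exhaustion genes, 5 of 10 counted members were at least 2-fold higher and 1 at least 2-fold lower. The receptor genes Ctla4, at 250 against 175 CPM, and Tigit, at 172 against 216 CPM, did not reach 2-fold. Tox2, a relative of the exhaustion factor TOX, was at 40.6 against 3.64 CPM and higher in 3 of 8 hashtags. Havcr2 (TIM-3) was at 93.8 against 25.8 CPM, Cd160 at 807 against 266 CPM and higher in 7 of 8 hashtags, and Lag3 at 188 against 71.9 CPM, while Entpd1 (CD39) was at 12.5 against 49.3 CPM. Pdcd1, the gene of PD-1, was at 128 against 54.4 CPM and higher in 4 of 8 hashtags, and its ratio of 2.36 was 1.31 without Cren 1. Of the residency list, 1 of 12 counted members were at least 2-fold higher and 5 at least 2-fold lower, the higher one being Xcl1; Itgb7, a subunit of the gut integrins, was at 134 against 379 CPM, Runx3 at 50.02 against 134 CPM and Itgae at 163 against 127 CPM.

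The lists that follow are short, and over all 4896 counted genes 12.5% were at least 2-fold higher and 9.8% at least 2-fold lower. Among cytokine receptors, 3 of 13 counted members were at least 2-fold higher and 4 at least 2-fold lower. The higher ones were Il2ra, Il21r at 428 against 132 CPM and Il4ra at 62.5 against 29.8 CPM. The lower ones were Il7r, Il27ra at 50.02 against 115 CPM, the interferon gamma receptor gene Ifngr1 at 403 against 895 CPM and Ifnar1 at 34.4 against 70.1 CPM. In the list of costimulatory receptors of the TNF receptor family and their TRAF adaptors, 3 of 8 counted members were at least 2-fold higher and 0 at least 2-fold lower. The higher ones were the receptor genes Tnfrsf9 and Tnfrsf4 and the adaptor gene Traf5, at 65.6 against 29.8 CPM, whose ratio of 2.21 was 1.46 without Cren 1. Tnfrsf9 is a mark given for the cluster, so the count is no separate support for it. Tnfrsf4 was counted only through cluster 11, with a UMI in 20.5% of its cells and 1.71% of other cells. The lowest ratios were those of the adaptor genes Traf2, at 37.5 against 32.4 CPM, and Traf1. Of the list of cytokine signalling and its feedback, 3 of 10 counted members were at least 2-fold higher and 1 at least 2-fold lower. The higher ones were Stat5a at 59.4 against 20.99 CPM, Stat3 at 284 against 129.5 CPM and Pim1 at 619 against 293 CPM. The survival gene Bcl2, at 40.6 against 108 CPM, was the lower one. The feedback genes Cish, Socs3, Socs1 and Socs2 had ratios of 1.44, 0.819, 0.603 and 0.513, none of them 2-fold. Among effector factors Zeb2 was at 147 against 64.1 CPM and higher in 8 of 8 hashtags, and Runx3 was the 1 of 7 that was at least 2-fold lower. Of the interferon response genes, 2 of 15 counted members were at least 2-fold higher and 5 at least 2-fold lower, with Ifi27l2a at 231 against 112 CPM, Isg15 at 159 against 78 CPM, the guanosine triphosphatase gene Igtp at 37.5 against 90.1 CPM and Zbp1 at 28.1 against 90.2 CPM; Ifit1, Ifit3 and Rsad2 had 0 UMIs. In the MHC class I list 1 of 9 was at least 2-fold lower, the immunoproteasome subunit Psmb9 at 166 against 357 CPM. Of the heat shock genes, 2 of 11 counted members were at least 2-fold higher and 2 at least 2-fold lower: the chaperonin gene Hspd1 and the reticulum chaperone gene Hspa5, at 719 against 285 CPM, were higher, and the stress-inducible Hspa1a, at 181 against 473 CPM, and Dnajb1 lower. The Hspa1a ratio of 0.383 was 0.598 without Cren 1 and 0.163 without Cren 4. The higher interferon genes, the lower effector and MHC class I genes and the heat shock genes were near the shares over all genes.

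Defining genes of the labelled CD8 T cells were present. Cd8a was at 1748 against 871 CPM and higher in 8 of 8 hashtags, Cd8b1, its partner chain, at 513 against 983 CPM and lower in 8 of 8, and Cd3e at 1409.9 against 1442 CPM. Of 11 identity genes, Cd8a was the 1 that passed 2-fold. The 1 counted gene of the CD4 and regulatory T cell list, Ikzf2, was at 43.8 against 18.1 CPM, and Trgv2 of the gamma-delta list at 178 against 383 CPM. Cd4 had 1 UMI in the cluster, and Foxp3, Zbtb7b, Trdc, Tcrg-C1, Trdv4, Klra8, Igkc, Csf1r, Itgam, S100a8 and Epcam had 0. Most of these were too scarce in other cells for a 0 to show a fall, such as Foxp3 at 1.11 CPM and Csf1r at 1.23 CPM. Of the NK and innate lymphoid list, Il1rl1, Kit and Areg were higher, on 3 UMIs each (9.38 against 0.870, 1.11 and 3.76 CPM). Eomes, Gata3 and Klrb1c of that list were lower. Of the 5 counted genes of the myeloid and dendritic list, 3 were at least 2-fold higher, Cd74 at 438 against 106 CPM, H2-Aa at 53.1 against 23.9 CPM and H2-Eb1 at 46.9 against 22.8 CPM, all of MHC class II presentation. Without the 2 cells highest for each, the ratios of H2-Aa and H2-Eb1 were 1.22 and 1.41. Lyz2 was at 34.4 against 60.4 CPM. The summed level of that list was 0 to 813 CPM in Crep hashtags and 617 to 1186 CPM in Cren hashtags within the cluster. Their part in the other differences was not tested.

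Antigen receptor segments were read from the gene counts, with the Trbv segment of most UMIs taken as the leading one of a cell. In cluster 11, 64 of 73 cells had a Trbv UMI, and 18 segments led in at least 1 of them. Trbv13-1 led in 11 of the 28 cells of Cren 1 (39.3%), against 118 of the 1277 other cells of Cren 1 (9.24%). Of those 11 cells, 10 had no Trav UMI, against 17 of the other 62 cells of the cluster (27.4%) and 46 of the 118 other Cren 1 cells led by Trbv13-1 (39.0%). Trbv2 led in 3 of the 6 cells of Cren 3 and in 9.37% of the other Cren 3 cells. A segment is not a clone, since no junction sequence was used. After thinning, 29.4% of cluster 11 cells had UMIs of 2 or more Trbv segments, as did 24.8% of other cells.

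Cluster 10 differed in this first. It held 109 of its 112 cells in Cren 3, Trbv2 led in 89 of them (79.5%), and 1.06% had 2 or more Trbv segments after thinning. The comparison therefore sets cells of 8 hashtags against cells of almost 1 hashtag. Of 5021 genes counted, 715 (14.2%) were at least 2-fold higher in cluster 11 than in cluster 10 and 605 (12%) at least 2-fold lower. Xcl1 had 3339 CPM in cluster 11 and 32.5 CPM in cluster 10 (1068 and 12 UMIs, a ratio of 103), and Tnfrsf9 969 and 64.9 CPM (310 and 24 UMIs, a ratio of 14.9). Tnfrsf4 had 41 UMIs in cluster 11 and 0 in cluster 10, and Ccr8 29 and 2. Kcnq5 had 25 and 1, the DNA repair gene Apex1 35 and 2, and the ribosome biogenesis gene Tsr1 15 and 1. Of the list of MYC targets and ribosome biogenesis, 15 of 16 counted members were at least 2-fold higher than in cluster 10.

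The other high genes of this pair were receptor segments: Trbc1 with 70 UMIs in cluster 11 and 1 in cluster 10, Trbv12-2 with 34 and 1, and Trbv13-3 with 89 and 0. On the low side Trbv2 had 8 and 214 UMIs, Trav1 10 and 265, Trav7-3 26 and 503, and Trav6-3 1 and 57. Beyond the segments, Klf2 was 6.42-fold lower, at 156 CPM in cluster 11 and 1003 CPM in cluster 10. The tubulin gene Tuba1a had 1 and 37 UMIs, Klrb1f 2 and 36, Ifitm10 2 and 27, Atp8a2 3 and 29 and the interferon-inducible Ifi213 4 and 29. Without Cren 3, cluster 10 kept 3 cells with 5257 UMIs, too few to compare: 9 of the 10 high genes had 0 UMIs in them, so their ratios there are lower bounds that give no direction.

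Within the cluster, the rule set for a test between Crep and Cren, 5 cells or more in 3 hashtags per group, was not met, since 2 Crep hashtags reached it. With all 8 hashtags, 0 of 411 genes (0%) passed in edgeR's quasi-likelihood test, 16 had an unadjusted p under 0.05, and DESeq2 and limma-voom also called 0. The smallest p was that of Psmb8, an immunoproteasome subunit, at 1023, 1068, 1383 and 1055 CPM in Crep and 594, 522, 611 and 506 CPM in Cren (log2 fold change 1.00, SE 0.23, edgeR adjusted p = 0.264). All 4 Crep values lay above all 4 Cren values. Ndufa4, of the respiratory chain, was lower in Crep by a log2 value of -1.23 without passing (edgeR adjusted p = 0.998), and Cyba differed by 0.73 (edgeR adjusted p = 0.998). Over all cells both passed in the same direction, Ndufa4 at -0.41 (edgeR adjusted p = 0.0303) and Cyba at 0.57 (edgeR adjusted p = 0.0121). They also passed over the cells outside the cluster (edgeR adjusted p = 0.0375 and 0.0151). Psmb8 did not pass over all cells (0.30, edgeR adjusted p = 0.181). The difference of the Crep minus Cren effect between the cluster and all other cells passed in 0 of 411 genes (0%), with 9 at an unadjusted p under 0.05. The cluster held 11378 to 39343 UMIs per Crep hashtag and 27823 to 129706 per Cren hashtag.

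Bcl6, the gene targeted in the donors, had 2, 1, 0 and 0 UMIs in the cluster in the Crep hashtags and 4, 1, 2 and 0 in the Cren hashtags. Over all cells it had 32.4, 29.9, 30.5 and 24.3 CPM in Crep and 16.7, 17.6, 15.4 and 20.5 CPM in Cren, higher in the hashtags labelled Crep. The kit reads transcript starts, so these counts check nothing about the deleted part of the gene, and each direction given is between the hashtags as labelled.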

How the data were processed

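Per the labels' protocols, cells were processed with a 10x Genomics 5′ kit with feature barcoding. The submitters' processing notes name the mm10 build, Seurat 4.3.0, Cell Ranger 7.0.0 and bcl2fastq 2.20.0.422. The authors deposited raw UMI counts for 12798 genes in 8562 cells. The mitochondrial, ribosomal and heat shock percent values and the cluster numbers were deposited by the authors too; the deposited UMAP scores were not used. Cells had 658 to 8495 UMIs, and hashtags 2635241 to 4201265.

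Hashtag and group came from the annotation. Whether hashtags mark separate mice is not stated, so p-values measure the spread between hashtags. No doublet caller was run. Counts were summed over cells, per set or per hashtag, and scaled to CPM, the count of a gene relative to the summed counts of all genes. A sum of 0 was set to 3 counts for a ratio. Ratios cover genes with a UMI in at least 10% of cells of either set. Named genes were the 20 highest and 10 lowest ratios to other cells, and the 10 highest and lowest to cluster 10, with a UMI in at least 20% of the cells of the higher set, the 3 smallest p between groups, and the extremes of each gene list; other genes were chosen after their values were seen. The members and lists were chosen with earlier results of these data known. Sums per hashtag were tested in edgeR 4.0.16 (quasi-likelihood, TMM, filterByExpr, Benjamini-Hochberg at 0.05), with DESeq2 1.42.0 and limma 3.58.1 as alternatives, in R 4.3.3, and the fit was tested on simulated data. Shares and CPM were compared with exact permutation tests in scipy 1.17.1. Intervals and floors cover counting error only. The fixed rule of 5 cells in 3 hashtags of each group was not met, so the fit with all hashtags is given.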

Additional observations from a re-analysis of the deposited data

Results flagged for a closer look

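Of 58 groups of 4 hashtags examined within the cluster, 10 held a hashtag far from the other 3. The rule flags about 1 in 20 groups of normally spread values. These CPM values are skewed, so that rate need not hold here and 10 cannot be set against it. Several rest on 2 to 9 cells. In Crep 4 (3 cells), Gzmb stood at 47021 CPM, where the next Crep hashtag had 3802 CPM, and Klf2 at 615 CPM, next to 44.5 CPM. In Crep 2 (9 cells), Ccl1 stood at 915 CPM, with 0 in the other Crep hashtags, and Cd74 at 559 CPM, next to 87.9 CPM. Srm was low in Crep 1, at 133 CPM, next to 173 CPM. Psmb8 in Crep 3 was at 1383 CPM, the Crep hashtag farthest from the others. In Cren 1, Ifng stood at 3870 CPM, next to 503 CPM. In Cren 3 (6 cells), Gzmk was at 144 CPM, Cd8a at 2480 CPM and Ncl at 647 CPM.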

How the results depend on the processing

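Limits. The cluster rests on 73 cells, 28 of them from Cren 1, and on 2 or 3 cells in 2 Crep hashtags, so its Crep levels are set by few cells. The counts of genes at least 2-fold from all other cells stayed within 1.5 times of 611 and 480 under every alternative, except that a floor of 5% of cells gave 895 lower genes. Leaving out each hashtag gave 599 to 677 higher and 477 to 556 lower genes. For the 20 highest and 10 lowest genes against all other cells, no direction reversed. Some list members with ratios near 1 crossed it, among them Gzmb (0.651 in place of 1.40), Batf and Cd69, without the 2 cells highest for each.

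The comparison with cluster 10 depends on Cren 3, where 109 of its 112 cells lie. Leaving out each hashtag gave 90 to 799 higher and 599 to 4145 lower genes, both extremes far from 715 and 605 coming from the omission of Cren 3. That omission leaves 3 cluster 10 cells, and 2999 of the 4145 genes counted as lower had 0 UMIs in them, where the ratio uses 3 counts in place of 0. Such a ratio is a lower bound and shows no reversal; the values below 1 here are of that kind, for 8 genes with 0 UMIs in the 3 cells. Over the omissions the ratio ran from 0.414 to 85.7 for Trbc1, 0.204 to 42.8 for Trbv12-2, 0.534 to 38.7 for Trbv13-3, 0.132 to 33.1 for Kcnq5, 0.180 to 23.1 for Apex1, 0.0840 to 17.98 for Tsr1, 0.174 to 19.6 for Ccr8 and 0.246 to 18.01 for Tnfrsf4, each lowest without Cren 3. Weighting hashtags equally, where 3 of the 4 with cluster 10 cells hold 1 cell each, gave 2884 higher and 951 lower genes, and a floor of 5% of cells gave 1121 and 1094.

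Between Crep and Cren, the share differed by -0.923 to -0.390 points when each hashtag was left out, and Xcl1 by -2878 to -1874 CPM. Genes passing in the cluster ranged from 0 to 1 over these omissions; the gene was Ly6c2, without Crep 2 (edgeR adjusted p = 0.00462). With no filter on low counts 1 gene passed, Trav13n-3 (adjusted p = 0.0455), and 1 passed for the difference from other cells, Ifitm1 (adjusted p = 8.5e-06). The cause was not tested. Same-numbered hashtags had correlations of deviations of -0.03, 0.15, 0.16 and 0.12, so the numbers were not taken as pairs. With the replicate block the share had an exact sign-flip p of 0.125. That is the smallest p that 4 pairs allow, so this test could not pass, and the Crep share was the lower one in each pair. With that block 0 genes passed in edgeR (8 at an unadjusted p under 0.05). The test of the fixed rule was not run, and the interaction against cluster 10 was not run, since cluster 10 lies in 4 hashtags. The omission of the 2 highest cells, the use of hashtags with at least 5 cells for the marks, the same omissions for list members and the interaction with all hashtags were chosen after seeing the data.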
